A study of Mus musculus with 44 samples.

Results

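Wnt signalling was followed through 44 genes that cover the pathway from secreted ligand to nuclear factor, out of 32287 gene identifiers listed in each library. The genes were selected by name, with earlier results of these data known, and each symbol was found in the deposited tables. By role they were 11 Wnt ligands, 2 genes for ligand release, 12 receptors and co-receptors, 5 genes of the R-spondin axis, 5 secreted inhibitors, 4 intracellular feedback genes and 5 nuclear factors. Expression is given as TPM, an abundance scaled for transcript length and library total, as the authors computed it.

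Wnt ligands are lipid-modified by Porcn, carried to the cell surface by Wls, and bind Frizzled receptors (Fzd) together with the co-receptors Lrp5 and Lrp6. In the canonical branch this stabilises beta-catenin, which acts with the TCF/LEF proteins (Lef1, Tcf7, Tcf7l1 and Tcf7l2) on target genes, several of which (Axin2, Nkd1, Notum, Rnf43, Znrf3, Sp5) feed back on the pathway. In the mouse embryo, Wnt signals are known for their part in primitive streak formation, in growth of the posterior body axis and in patterning of the gut tube along its length.

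The study asked how far gut endoderm cells of extraembryonic origin (exGut) come to resemble their embryonic neighbours (emGut). Embryos were made by aggregating GFP+ embryonic stem cells of one male G4 line with mCherry+ morulae (CD1/G4) of either sex, so that the embryo proper derived from the stem cells and the extraembryonic tissues from the morula. The study's methods name the stem cell line F1G4. The morulae had CD-1 mothers and mCherry+ fathers from a colony kept by mating to C57BL/6J females, so they also carried C57BL/6J. RNA was measured in 44 low-input poly(A) libraries in 12 groups. All groups carried only the reporters and were otherwise wild type, except the extraembryonic cells at E13.5.

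At E6.5, epiblast (Epi, GFP+), distal extraembryonic endoderm (exEndo 1, mCherry+) and proximal extraembryonic endoderm (exEndo 2, mCherry+) were taken from single embryos (n = 4 each). At E9.5, EPCAM+ cells of the midgut and hindgut were sorted into mCherry+ cells (exMidgut and exHindgut) and cells with GFP and low mCherry (emMidgut and emHindgut), beside mCherry+ yolk sac endoderm (YsEndo), each from pools of 4 embryos (n = 4 each). At E13.5, EPCAM+ cells of the small intestine and colon of single embryos were mCherry+ with a Trp53 knockout (exSI and exColon) or GFP+ and wild type (emSI and emColon) (n = 3 each). Origin cannot be told apart from the cell line, strain and sex of the donor cells at any stage, nor from the Trp53 genotype at E13.5. The labels do not say whether all replicates came from separate litters, so p-values measure the spread between these libraries.

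Aligned bases were 3.53 to 12 Gb per library, and 10382 to 13596 genes exceeded 1 TPM. The reporters followed the labels: mCherry was at 1731 to 8667 TPM in the 26 extraembryonic libraries and at 0 to 6.61 TPM in the 18 embryonic ones, and EGFP was at 0 to 15.9 and 179.6 to 880.2 TPM. Trp53 was at 33.4 to 167 TPM in the 6 knockout libraries and at 151 to 245 TPM in the 6 wild-type libraries of E13.5, so the ranges overlapped, and a value per gene does not show the deleted part. The gut endoderm markers were present in every gut group, while several libraries also held transcripts of other cell types: streak and tail bud markers in both hindguts, germ cell markers in emMidgut replicates 1 and 3, mesenchyme markers in emSI replicates 1 and 2, extraembryonic ectoderm markers in exEndo 2 replicates 2 and 4, and surface ectoderm markers in exColon replicate 1. Their values are given beside the genes they moved with, and in bulk RNA fewer cells of a type and less RNA per cell cannot be told apart.

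The promoters of 4 members are shown. Those of 3 were chosen as members higher in both hindguts whose window holds a TCF/LEF word, and that of Nkd2 for its values. Sp5, Wnt3 and Lef1 were higher in hindgut than midgut in both lineages, and Nkd2 was higher in every emHindgut library (embryonic hindgut) than in any other library. Each line is 300 bases of RefSeq sequence, on the gene's strand, in build GRCm38.p6, from 250 bases before the start site to 50 after it. Capitals mark TCF/LEF words, searched as CTTTG followed by AA, AT, TA or TT on both strands with no mismatch. The windows lie at chr2:70474673-70474972 (Sp5, plus strand), chr11:103773925-103774224 (Wnt3, plus strand), chr3:131156044-131156343 (Lef1, plus strand, an internal start site of the gene) and chr13:73847582-73847881 (Nkd2, minus strand).
Sp5: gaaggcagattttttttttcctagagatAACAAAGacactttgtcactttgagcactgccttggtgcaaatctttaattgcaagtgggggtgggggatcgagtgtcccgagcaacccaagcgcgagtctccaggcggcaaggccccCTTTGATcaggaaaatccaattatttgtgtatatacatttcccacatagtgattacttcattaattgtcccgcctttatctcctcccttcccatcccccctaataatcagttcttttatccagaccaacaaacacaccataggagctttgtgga
Wnt3: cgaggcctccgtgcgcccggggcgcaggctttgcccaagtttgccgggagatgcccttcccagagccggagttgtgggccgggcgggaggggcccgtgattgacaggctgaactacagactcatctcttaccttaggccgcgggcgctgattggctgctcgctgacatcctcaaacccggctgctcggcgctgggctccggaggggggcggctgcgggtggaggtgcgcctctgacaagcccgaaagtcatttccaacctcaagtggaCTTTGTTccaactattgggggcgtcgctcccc
Lef1: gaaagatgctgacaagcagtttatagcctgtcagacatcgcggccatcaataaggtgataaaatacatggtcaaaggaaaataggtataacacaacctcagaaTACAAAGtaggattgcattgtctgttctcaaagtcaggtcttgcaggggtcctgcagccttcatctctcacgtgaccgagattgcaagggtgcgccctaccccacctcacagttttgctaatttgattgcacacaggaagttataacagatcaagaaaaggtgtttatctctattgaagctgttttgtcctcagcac
Nkd2: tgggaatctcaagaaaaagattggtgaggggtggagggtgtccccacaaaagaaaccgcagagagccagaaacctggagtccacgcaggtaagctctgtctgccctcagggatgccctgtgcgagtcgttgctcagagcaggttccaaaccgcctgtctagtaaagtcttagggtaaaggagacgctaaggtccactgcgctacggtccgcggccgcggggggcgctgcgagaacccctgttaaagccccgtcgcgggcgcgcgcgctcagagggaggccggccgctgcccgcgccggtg

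The Sp5 window held 2 words, first bases at -222 and -104 from the start site, where negative positions lie before it. The Wnt3 window held 1 at 19 and the Lef1 window 1 at -147, while the other 3 Lef1 windows and the Nkd2 window held none. Windows were given for 26 of the 44 members, 33 windows in all, and 6 of them (18.2%) held a word, against 16.9% of 32851 windows over all promoters. The 6 genes were Wnt3, Wnt11, Fzd7, Lef1, Tcf7l2 and Sp5. Of the 8 members with windows that were higher in both hindguts, Sp5, Wnt3 and Lef1 held a word, in 3 of 12 windows, and the other 5 held none. Of the 3 members with windows that were lower in both hindguts, Tcf7l2 held a word, in 1 of 4 windows. The share of windows with a word was 25% in either set. A word is a description of the letters in the window and not a binding site.

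Members were present at every stage, in numbers that differed between groups. In emHindgut and exHindgut 34 of 44 had a mean above 1 TPM, in emMidgut 33, in exMidgut 31, in exEndo 1 30, in Epi 29 and in YsEndo 15. Their summed TPM was 1226 ± 38.5 (SD, n = 4) in emHindgut and 1136 ± 21.8 (SD, n = 4) in exHindgut. It was 666 ± 65.6 (SD, n = 4) in emMidgut, 708 ± 92.6 (SD, n = 4) in exMidgut and 184 ± 18.1 (SD, n = 4) in YsEndo. The hindgut sums thus lay above the midgut sums in both lineages, and those of the yolk sac below all others. The ligands were mostly low: Wnt4, Wnt7a, Wnt7b, Wnt9b and Wnt10a had a mean under 1 TPM in all groups of E9.5, and Wnt5a was the most abundant ligand of all 4 gut groups of that stage. Wls, the carrier of Wnt proteins, was the most abundant member in all 4 gut groups and in YsEndo.

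**Figure D1:**
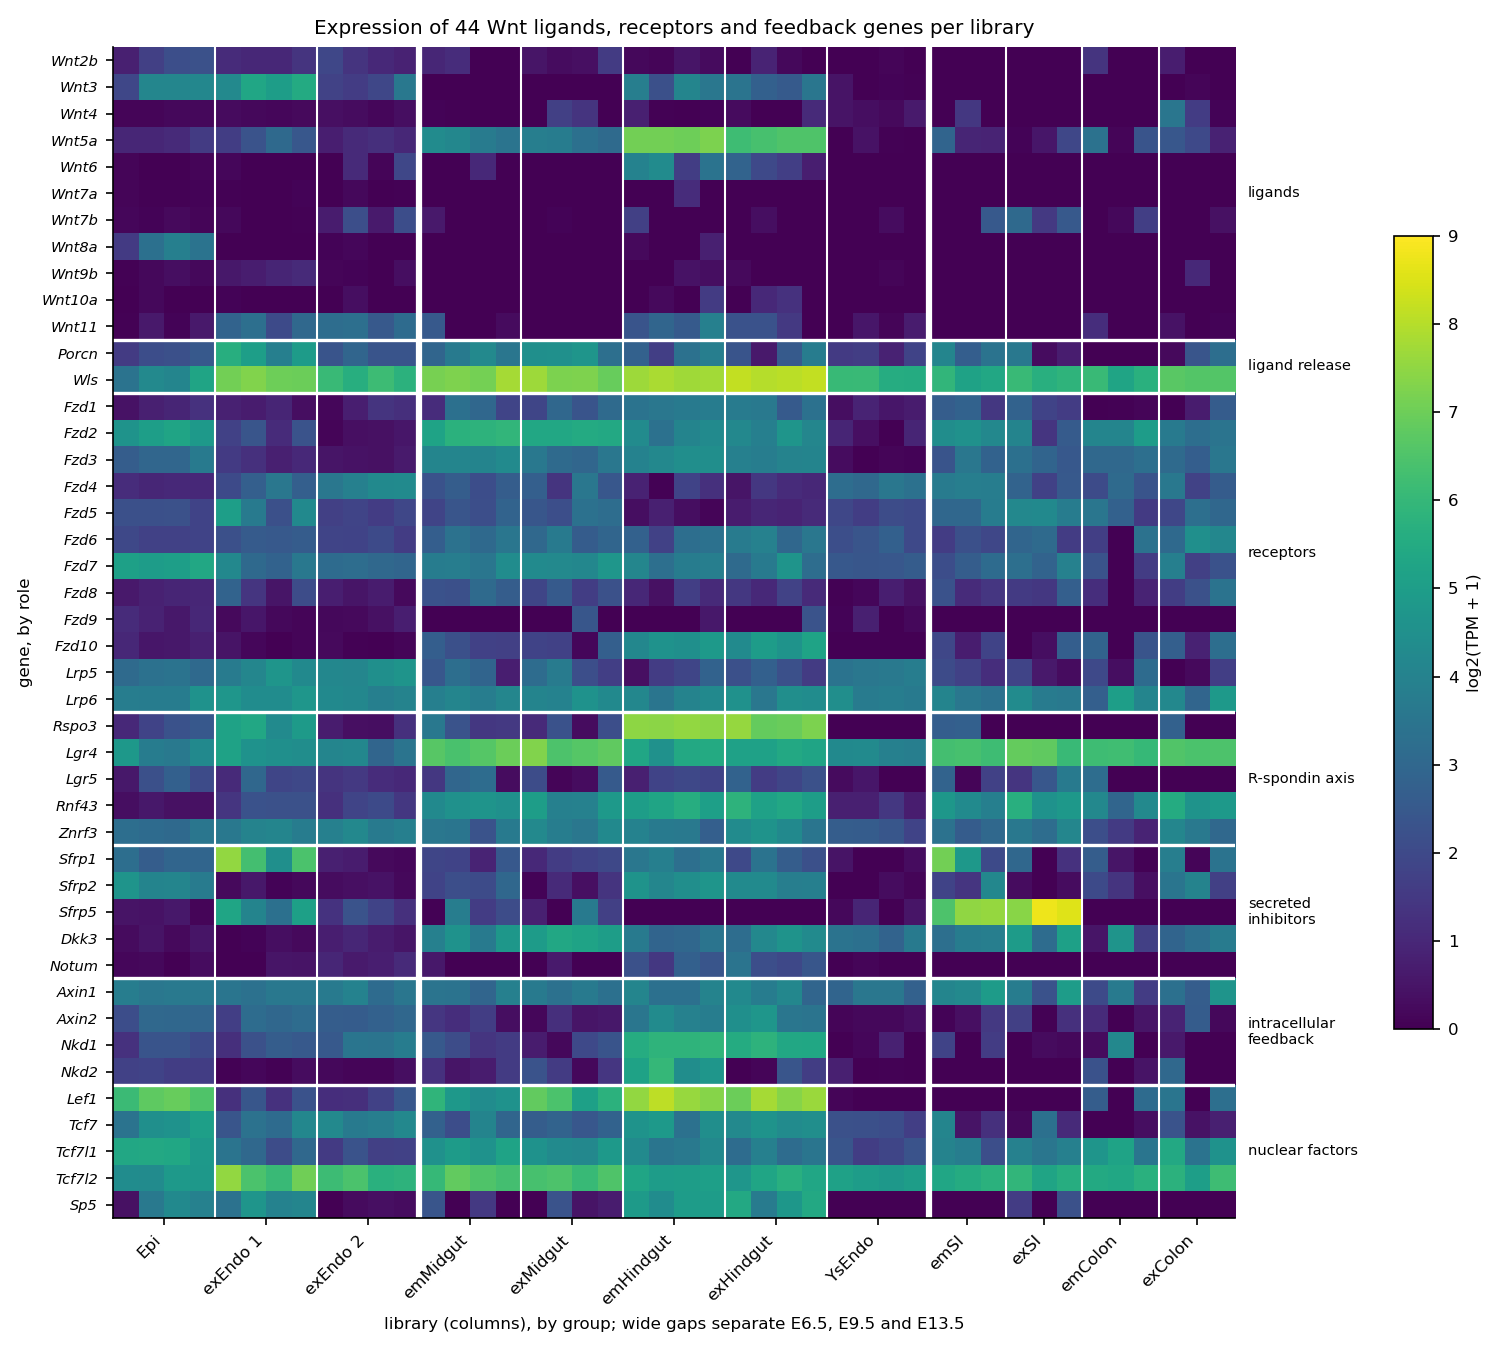
Expression of the 44 members as log2(TPM + 1), with a row for each gene ordered by role and a column for each of the 44 libraries, grouped by population. The hindgut columns are brighter than the midgut columns for Wnt5a, Rspo3, Axin2, Nkd1, Lef1 and Sp5, and the YsEndo columns are dark for most members.

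At E9.5 the first question was whether origin marked the pathway in the gut. Nkd2 passed in the hindgut, and the share of members that passed was near that of all genes. A gene entered the test where 4 or more of the compared libraries (3 where E13.5 entered) held it above 1 TPM. Members at or below 1 TPM in every library of 1 group met this filter through the other libraries alone, so their p-values there are a description. The test was limma on log2(TPM + 1), with Benjamini-Hochberg adjustment over all genes tested; a gene passed at an adjusted p under 0.05 and a log2 difference beyond 1 in either direction. With both regions together, 36 members were tested between exGut and emGut and 0 passed, where 2.35% of all genes did; 4 had an unadjusted p under 0.05 (Fzd3, Znrf3, Dkk3 and Nkd2). The members' log2 differences ran from -1.85 (Nkd2) to 0.86 (Dkk3), with a median of -0.03 that equalled the median of all genes. The test also gave 0 members with gut region as a covariate.

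In the midgut 31 members were tested and 0 passed (2.58% of all genes), with 4 at an unadjusted p under 0.05 by limma. Fzd3, a receptor, was at 16.2, 16.3, 15.5 and 19.0 TPM in emMidgut and at 11.3, 7.61, 6.79 and 11.0 TPM in exMidgut (log2 difference -0.83 ± 0.296 SE, adjusted p = 0.157). Sfrp2, a secreted Wnt antagonist, was at 2.51, 3.53, 3.19 and 7.09 TPM in emMidgut and 0.074, 1.08, 0.3 and 1.58 TPM in exMidgut (-1.54 ± 0.492 SE, adjusted p = 0.114). Dkk3, a secreted member of the Dickkopf family, was at 14.2, 22.8, 12.2 and 26.4 TPM in emMidgut and 29.7, 40.9, 36.5 and 31.2 TPM in exMidgut (0.89 ± 0.274 SE, adjusted p = 0.0999). In these 3 genes the groups did not overlap, as in 10.3% of all genes tested. Lef1, a nuclear effector, was at 58.1, 26.6, 20.0 and 23.0 TPM in emMidgut and 114, 85.8, 33.4 and 54.4 TPM in exMidgut, with overlap (1.13 ± 0.37 SE, adjusted p = 0.123). Without emMidgut replicate 1 or exMidgut replicate 3, Lef1 passed and the count became 1. emMidgut replicate 1 is one of the libraries with germ cell transcripts, whose summed germ cell markers were 255, 5.52, 207 and 6.28 TPM in the emMidgut replicates. Yolk sac endoderm markers summed to 7259 to 17365 TPM in exMidgut and 1522 to 3263 TPM in emMidgut. Neural markers summed to 3.93 to 8.71 TPM in exMidgut and 22.1 to 62.4 TPM in emMidgut, also without overlap. The part of any of these transcripts in the members' values was not tested.

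In the hindgut 34 members were tested and 1 passed, Nkd2 (3.07% of all genes passed); 8 had an unadjusted p under 0.05. Nkd2 encodes a Naked cuticle protein, which binds Dishevelled and restrains Wnt signalling, and lies on chromosome 13 (73818534 to 73847631, minus strand, mm10; ENSMUSG00000021567). It was at 35.5, 62.0, 20.5 and 25.6 TPM in emHindgut and at 0, 0.079, 4.17 and 2.13 TPM in exHindgut. Every emHindgut library was above every exHindgut library, and the log2 difference was -4.05 ± 0.516 SE (adjusted p = 0.000285). It passed in every setting tried, between -5.68 and -3.71 with an adjusted p of 9.09e-05 to 0.0202. In emMidgut Nkd2 was at 1.42, 0.44, 0.61 and 1.93 TPM and in exMidgut at 3.99, 1.93, 0.14 and 1.67 TPM, with overlap. The emHindgut values were the highest of Nkd2 in all 44 libraries: the next was 7.25 TPM, in exColon replicate 1.

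The Nkd2 pattern was already known from earlier results of these data, so its values are a description rather than independent evidence. Hindgut minus midgut was 4.07 ± 0.386 SE in the embryonic cells (adjusted p = 2.80e-06) and -0.34 ± 0.634 SE in the extraembryonic cells (adjusted p = 0.770). The interaction of origin and region was -4.41 ± 0.766 SE (adjusted p = 0.0294), the only 1 of 36 members to pass, where 0.0965% of all genes did; Sfrp2 and Lef1 also had an unadjusted p under 0.05. This call rested on several libraries. It was lost without emHindgut replicate 1 (adjusted p = 0.0665) or 2 (0.0714), emMidgut replicate 2 (0.0548) or 3 (0.0690) and exHindgut replicate 1 (0.0544) or 2 (0.0870), while the difference stayed between -4.37 and -4.07. Without the emMidgut libraries that hold germ cell transcripts it was -4.38 (adjusted p = 0.115).

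The other members with hindgut differences were smaller. Wnt5a, a ligand of the non-canonical branch that shapes elongating tissues, was at 134, 136, 129 and 149 TPM in emHindgut and 72.4, 82.0, 91.6 and 90.5 TPM in exHindgut. No library of exHindgut reached emHindgut, and the log2 difference was -0.70 ± 0.12 SE (adjusted p = 0.00356), which is under the limit of 1. Wls was at 202, 232, 211 and 216 TPM in emHindgut and at 285, 252, 268 and 285 TPM in exHindgut, also without overlap (0.34 ± 0.0936 SE, adjusted p = 0.0496). Wnt11, another non-canonical ligand, was at 4.08, 6.65, 4.81 and 14.3 TPM in emHindgut and 3.85, 3.82, 1.83 and 0 TPM in exHindgut, without overlap but with an adjusted p of 0.146. Groups did not overlap in 4 of 34 members (Nkd2, Wnt5a, Wnt11 and Wls) and in 11.9% of all genes. Wnt6, a further ligand, was at 14.7, 19.1, 2.14 and 9.77 TPM in emHindgut and 6.21, 2.94, 2.15 and 0.67 TPM in exHindgut, with overlap through emHindgut replicate 3. The count rose from 1 to 2 without emHindgut replicate 3 (Wnt6 passed), exHindgut replicate 1 (Dkk3 passed) or exHindgut replicate 2 (Sfrp1 passed).

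Markers of other cell types and of position also differed between these hindgut groups, beside the Nkd2 and Wnt5a values. The 4 hindgut and colon markers summed to 95.2 to 112 TPM in emHindgut and 39.4 to 86.2 TPM in exHindgut. The 9 yolk sac endoderm markers summed to 40.2 to 123 TPM in emHindgut and 126 to 711 TPM in exHindgut, and the 10 mesenchyme markers to 78.9 to 107 TPM and 58.5 to 70.3 TPM. The 9 gut endoderm markers summed to 1952 to 2468 TPM in emHindgut and 2509.6 to 3414 TPM in exHindgut. None of these sums overlapped between the groups. Tbx6, a marker of presomitic mesoderm, was at 58.9, 67.4, 53.7 and 31.4 TPM in emHindgut and at 15.6, 1.66, 21.2 and 9.62 TPM in exHindgut. Twist1, one of the mesenchyme markers, was at 11.8, 7.11, 7.18 and 13.1 TPM in emHindgut and at 5.21, 0.69, 2.33 and 0.74 TPM in exHindgut. The 7 streak and nascent mesoderm markers together summed to 688 to 916 TPM in emHindgut and 596 to 948 TPM in exHindgut, so these ranges overlapped, and Mesp1 was at 0 in exHindgut. Their part in the Nkd2 difference was not tested.

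More members passed between the gut regions than between the origins. In the embryonic lineage 35 members were tested between hindgut and midgut and 22 passed, where 13.9% of all genes did: 16 were higher in emHindgut (5.24% of all genes) and 6 lower (8.61%). In the extraembryonic lineage 33 were tested and 18 passed, where 11.3% of all genes did: 11 higher in exHindgut (4.50%) and 7 lower (6.78%). Of these, 11 members were higher in both hindguts (Wnt3, Wnt5a, Fzd10, Rspo3, Sfrp2, Notum, Axin2, Nkd1, Lef1, Tcf7 and Sp5) and 4 were lower in both (Fzd2, Fzd5, Lgr4 and Tcf7l2). The median log2 difference of the members was 0.42 in the embryonic lineage (-0.02 over all genes) and 0.64 in the extraembryonic lineage (0.00 over all genes). Of all genes tested, 26% did not overlap between the regions in the embryonic lineage and 21.2% in the extraembryonic lineage. No library entered both comparisons. Cells of both lineages were sorted from pooled midgut and hindgut tissue. The labels do not say whether the lineages shared pools, so the comparisons may not be independent.

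Among ligands, Wnt3, which acts in primitive streak formation, was listed at 0 in all 8 midgut libraries, so no fold is given. Wnt3 entered both tests through the hindgut libraries alone, so its p-values are a description. It was at 3.62 to 16.3 TPM in emHindgut, with a median of 12.2 TPM (adjusted p = 5.06e-05) and at 10.1, 5.77, 4.88 and 10.6 TPM in exHindgut (adjusted p = 0.000210). Wnt5a was at 19.3, 16.9, 12.3 and 9.91 TPM in emMidgut and 13.3, 12.8, 8.94 and 7.59 TPM in exMidgut, all below every hindgut library given above. Its log2 difference from midgut was 3.19 ± 0.197 SE in the embryonic cells (adjusted p = 4.25e-08) and 2.89 ± 0.231 SE in the extraembryonic cells (adjusted p = 1.68e-06). Wnt6 and Wnt11 passed in the embryonic lineage, with log2 differences of 3.09 and 2.24; in the extraembryonic lineage they were not tested, being listed at 0 in all 4 exMidgut libraries and above 1 TPM in 3 libraries of the comparison. Outside the module, Wnt3a, a canonical ligand of the tail bud, was likewise at 0 in all midgut libraries, at 49.5, 43.0, 55.7 and 49.5 TPM in emHindgut and at 30.4, 12.6, 25.9 and 32.6 TPM in exHindgut.

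Rspo3, a secreted protein that potentiates Wnt signalling through Lgr receptors, showed the largest log2 difference of the members tested in both lineages. It was at 11.1, 3.96, 1.73 and 1.83 TPM in emMidgut and at 176, 172, 187 and 172 TPM in emHindgut (log2 difference 5.26 ± 0.366 SE, adjusted p = 1.59e-07). In the extraembryonic cells it was at 1.11, 3.87, 0.24 and 3.50 TPM in exMidgut and at 188, 115, 122 and 147 TPM in exHindgut (5.68 ± 0.400 SE, adjusted p = 6.54e-07). Its receptor Lgr4 went the other way. Lgr4 was at 101, 83.9, 97.7 and 125 TPM in emMidgut and 39.2, 22.3, 41.9 and 44.1 TPM in emHindgut (-1.48 ± 0.207 SE, adjusted p = 0.000106). It was at 155, 87.7, 97.2 and 109.9 TPM in exMidgut and 34.9, 34.6, 41.8 and 37.6 TPM in exHindgut (-1.54 ± 0.190 SE, adjusted p = 7.94e-05). Lgr5, a target and receptor of the same axis, passed in neither lineage.

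The Frizzled receptors divided. Fzd10 was at 5.38, 3.61, 2.36 and 2.23 TPM in emMidgut and 16.9, 23.3, 21.2 and 27.3 TPM in emHindgut, and at 2.53, 2.34, 0.12 and 5.60 TPM in exMidgut and 18.6, 30.5, 23.6 and 36.1 TPM in exHindgut. It was thus higher in every hindgut library, by 2.44 (adjusted p = 4.99e-05) and 3.16 (adjusted p = 0.000457) on the log2 scale. Fzd2 was lower in both hindguts, at 19.2, 9.33, 15.8 and 18.6 TPM against 36.1, 53.2, 55.0 and 59.3 TPM in the embryonic cells (-1.66, adjusted p = 0.000180). In the extraembryonic cells Fzd2 was at 17.4, 13.6, 24.9 and 16.4 TPM against 40.7, 41.5, 44.4 and 42.2 TPM (-1.21, adjusted p = 0.00229). Fzd5 was at 0.1 to 0.73 TPM in emHindgut and 2.61 to 6.21 TPM in emMidgut (-1.91, adjusted p = 0.00279). Fzd5 entered this test through emMidgut alone, so this p-value is a description. Its values were 0.62 to 1.09 TPM in exHindgut and 3.43 to 9.33 TPM in exMidgut (-1.89, adjusted p = 0.00805). Fzd1 (1.29), Fzd4 (-1.43) and Fzd8 (-1.51) passed in the embryonic lineage alone, but none of the 3 passed the interaction test, so a difference between the lineages was not shown.

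Of the 4 intracellular feedback genes, Nkd1 and Axin2 were higher in both hindguts. Nkd1, the paralogue of Nkd2, was at 4.70, 3.30, 1.59 and 1.93 TPM in emMidgut and 46.3, 56.6, 57.1 and 59.0 TPM in emHindgut (3.91 ± 0.289 SE, adjusted p = 2.85e-07). In the extraembryonic cells it was at 0.6, 0.14, 2.97 and 4.05 TPM in exMidgut and 46.0, 54.8, 41.5 and 40.0 TPM in exHindgut (4.23 ± 0.451 SE, adjusted p = 2.18e-05). So Nkd1 was high in both hindguts, where Nkd2 was high in one. Axin2, a scaffold of the beta-catenin destruction complex and a widely used readout of the pathway, was at 1.71, 1.26, 2.11 and 0.26 TPM in emMidgut and 10.6, 19.5, 14.6 and 13.1 TPM in emHindgut (2.77, adjusted p = 7.85e-05). It was at 0.12, 1.34, 0.44 and 0.48 TPM in exMidgut and 21.1, 25.6, 10.7 and 10.0 TPM in exHindgut (3.43, adjusted p = 0.000103). Its homologue Axin1 passed in neither lineage. Notum, an enzyme that removes the lipid of Wnt ligands, was above 1 TPM in each of the 8 hindgut libraries (1.76 to 10.0 TPM) and in none of the midgut (0 to 0.58 TPM). Rnf43 and Znrf3, which remove Frizzled receptors from the surface, passed in neither lineage.

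Of the nuclear factors, Lef1, Tcf7 and Sp5 were higher in both hindguts. Tcf7 was higher by 1.33 on the log2 scale in the embryonic cells (adjusted p = 0.0277) and by 1.70 in the extraembryonic cells (adjusted p = 0.00108). Lef1 was at 186, 274, 194 and 163 TPM in emHindgut and 125, 218, 164 and 197 TPM in exHindgut, above every midgut library (log2 differences 2.74 ± 0.267 SE, adjusted p = 3.59e-06, and 1.39 ± 0.303 SE, adjusted p = 0.00580). The interaction of Lef1 was -1.35 ± 0.453 SE with an adjusted p of 0.396. Sp5, a zinc finger factor and Wnt target, was at 29.1, 19.6, 30.4 and 30.2 TPM in emHindgut and 4.16, 0, 1.81 and 0 TPM in emMidgut (3.84 ± 0.483 SE, adjusted p = 3.92e-05). It was at 42.0, 12.5, 26.1 and 41.9 TPM in exHindgut and 0, 3.92, 0.39 and 0.62 TPM in exMidgut (3.97 ± 0.531 SE, adjusted p = 0.000153). Tcf7l2, the TCF of the intestinal epithelium, was lower in both hindguts, at 30.2 to 38.1 TPM against 63.8 to 114 TPM in the embryonic cells (-1.32) and 25.3 to 50.4 TPM against 65.2 to 90.4 TPM in the extraembryonic cells (-1.10).

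Among the secreted inhibitors Sfrp2 was higher in both hindguts, by 2.21 and 3.36 on the log2 scale, while Sfrp1 passed in the embryonic lineage alone (1.81) and Dkk3 in the extraembryonic lineage alone (-1.05), as did Porcn (-1.92) and Tcf7l1 (-1.04). Sfrp1, Dkk3, Porcn and Tcf7l1 did not pass the interaction test, so a difference between the lineages was not shown for them. Sfrp1, Dkk3 and Tcf7l1 had an unadjusted p under 0.05 by limma in both lineages. Sfrp5 was listed at 0 in all 8 hindgut libraries. Several of these calls depended on single libraries. Wnt3 and Notum left the test of a lineage when any 1 of its hindgut libraries was left out. They were then above 1 TPM in too few libraries. For the same reason Fzd5 left the embryonic test without any emMidgut replicate. In the embryonic lineage Tcf7 lost its call without emHindgut replicate 1, 2 or 4 or emMidgut replicate 1, 2 or 4 (adjusted p = 0.0505 to 0.0890), and Fzd1 without any emHindgut replicate or emMidgut replicate 1 or 4 (0.0623 to 0.0991). Fzd4 lost it without emHindgut replicate 1 or 2 or emMidgut replicate 2 or 4 (adjusted p = 0.0596 to 0.0883), and Fzd8 without emHindgut replicate 2 or emMidgut replicate 3 (0.0514 to 0.0538). In the extraembryonic lineage Porcn lost it without exHindgut replicate 1 or 2 or exMidgut replicate 1, 2 or 3 (adjusted p = 0.0580 to 0.0782), and Tcf7l1 without exHindgut replicate 1 or 3 or exMidgut replicate 1 or 4 (0.0533 to 0.0728). Dkk3 lost it without exHindgut replicate 1 or exMidgut replicate 2 or 3 (adjusted p = 0.0578 to 0.0692), and Tcf7l2 without exHindgut replicate 1, where the difference was -0.92 (adjusted p = 0.00699).

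**Figure D2:**
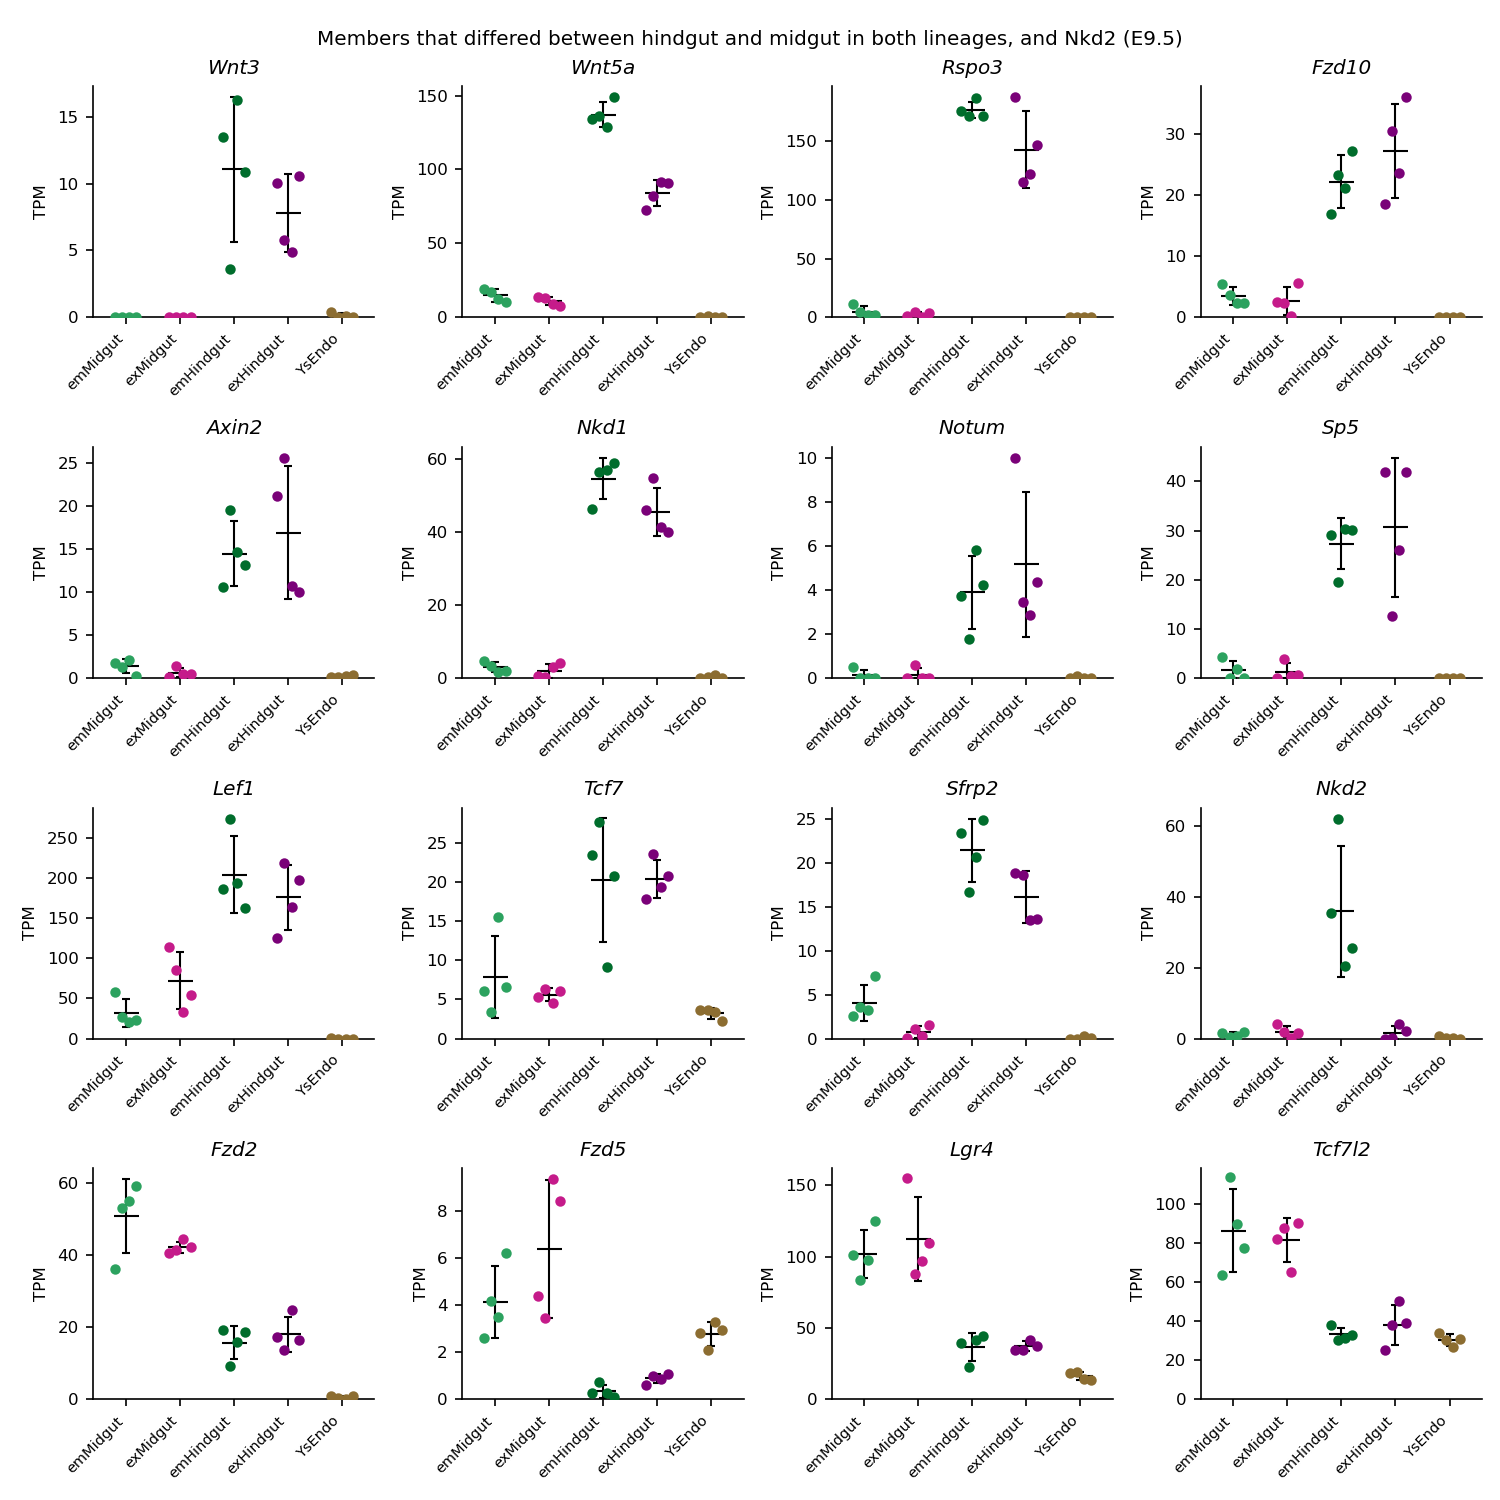
TPM at E9.5 of the 15 members that passed between hindgut and midgut in both lineages, and of Nkd2; points are libraries (n = 4 per group), the horizontal mark is the mean and the bar the SD, cut at 0. Wnt3 is at 0 in all midgut libraries, Rspo3 and Nkd1 rise in both hindguts, and Nkd2 is high in emHindgut alone.

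**Figure D3:**
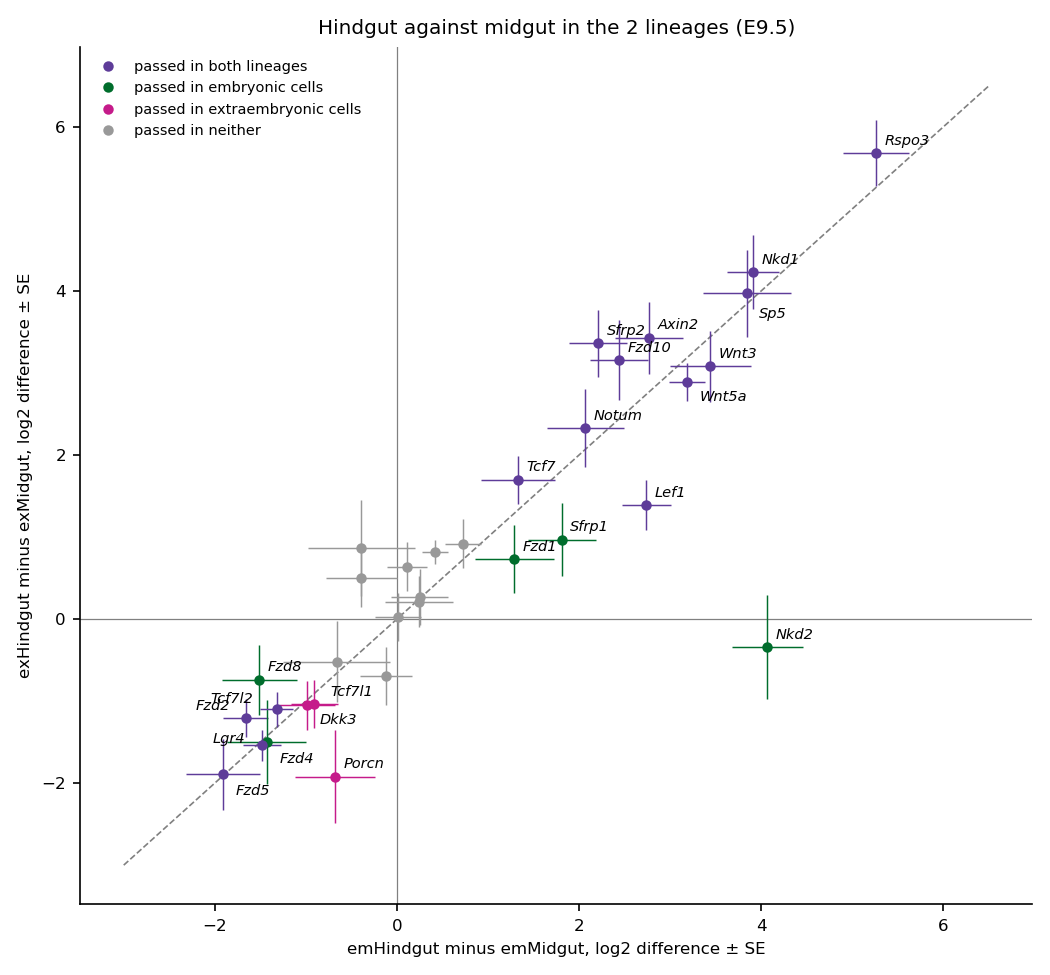
Log2 difference of hindgut against midgut in embryonic cells (horizontal) and extraembryonic cells (vertical) for the 33 members tested in both, with SE. The dashed line marks equal differences. The 2 axes share no libraries, though they may share embryo pools. Most coloured points lie near the line and Nkd2 lies far from it; Wnt3 is listed at 0 in the midguts, so its position is no fold.

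The hindgut libraries held transcripts of the tail bud in both lineages, and these moved with the members. The streak and nascent mesoderm markers summed to 596 to 948 TPM over the hindgut libraries and to 0.081 to 46.4 TPM over the midgut libraries. T, which marks streak, notochord and tail bud, was at 239, 177, 258 and 312 TPM in emHindgut and 286, 163, 141 and 195 TPM in exHindgut, and no midgut library was above 11.9 TPM. Epcam was present in all, at 331 to 417 TPM in emHindgut, 479 to 659 TPM in exHindgut and 791 to 1029.8 TPM in the midguts. Yolk sac endoderm markers were lower in the hindguts, at 40.2 to 123 TPM in emHindgut and 126 to 711 TPM in exHindgut against 1522 to 3263 TPM in emMidgut and 7259 to 17365 TPM in exMidgut. The 9 gut endoderm markers summed to 1952 to 2468 TPM in emHindgut, 2509.6 to 3414 TPM in exHindgut and 5202 to 6594 TPM over the midgut libraries. The part of these cells in the region differences was not tested. Without the emMidgut libraries that hold germ cell transcripts, 20 members passed in the embryonic lineage.

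Other genes of the pathway, from a list of 73, also passed more often between regions than between origins. In the exGut comparison 1 of 58 tested passed, Cdx4, a posterior homeobox gene and Wnt target, which was at 451, 509, 437 and 526 TPM in emHindgut and 16.2, 0, 0 and 0.08 TPM in exHindgut. Within the midgut Cdx4 and Cdx2 passed of 51, and within the hindgut Cdx4 and Wnt3a of 55 (Wnt3a log2 difference -1.01 ± 0.253 SE, adjusted p = 0.0315). Between the regions 16 were higher and 2 lower of 54 in the embryonic lineage, and 10 higher and 2 lower of 52 in the extraembryonic lineage. T had the largest difference in both, 6.45 and 6.56 on the log2 scale, and Wnt5b, another non-canonical ligand, had 4.48 and 6.23.

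Against the yolk sac endoderm, tissue of the same lineage that stays outside the embryo, most tested members were higher in exGut. Of 33 members tested 26 passed, where 42.4% of all genes did: 24 were higher in exGut (32.3%) and 2 lower (10.0%). The median log2 difference was 1.84 for the members and 0.59 for all genes. That shift of all genes depended on scaling. After median-ratio rescaling it was 0.08, the share of all calls that were higher moved from 76.3% to 54.8%, and 21 members passed, with Axin2, Tcf7, Fzd6, Dkk3 and Porcn lost. The changes below are best read relative to it.

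Lef1 differed most (6.71 ± 0.417 SE, adjusted p = 7.79e-09), at 0 in 3 YsEndo libraries and 0.093 TPM in the fourth, and 33.4 to 218 TPM in exGut. Wnt5a was at 0, 0.37, 0.041 and 0 TPM in YsEndo (4.83 ± 0.695 SE, adjusted p = 3.34e-05). Of the receptors, Fzd2 was at 0.019 to 0.93 TPM in YsEndo (4.26) and Fzd3 at 0.008 to 0.24 TPM (3.50), and both were above 6 TPM in each exGut library. Lef1, Wnt5a, Fzd2 and Fzd3 were thus under 1 TPM in every YsEndo library. They entered the test through exGut alone, so their p-values are a description. The receptor-removing ligase Rnf43 was at 0.64 to 1.74 TPM in YsEndo and 14.2 to 55.9 TPM in exGut (3.95 ± 0.339 SE, adjusted p = 2.11e-07). Rspo3, Sp5 and Fzd10 were listed at 0 in all 4 YsEndo libraries, so no fold is given for these 3 members that passed. The other members higher in exGut were Porcn, Wls, Fzd1, Fzd6, Fzd7, Fzd8, Lgr4, Lgr5, Znrf3, Sfrp1, Sfrp2, Dkk3, Axin2, Nkd1, Tcf7 and Tcf7l1, between 1.00 (Fzd6) and 3.17 (Nkd1). Fzd4 (-1.53) and the co-receptor Lrp5 (-1.16) were lower. Fzd4 was at 7.20 to 10.9 TPM in YsEndo and 0.41 to 11.0 TPM in exGut, and Lrp5 at 9.71 to 12.9 and 1.99 to 12.5 TPM, so both ranges overlapped.

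exGut in this comparison joins both regions, and for Rspo3, Axin2, Nkd1, Sp5 and Sfrp2 the exMidgut values lay near those of YsEndo. Axin2 lost its call without any of the 4 YsEndo or the 4 exHindgut libraries (adjusted p = 0.0617 to 0.0820). Sfrp2 lost it without YsEndo replicate 1, 2 or 4 (adjusted p = 0.0512 to 0.0553) and Porcn without YsEndo replicate 3 (0.0670). Fzd6 lost it by size, at 0.90 to 0.97, without YsEndo replicate 1 or 4, exHindgut replicate 1, 2 or 4 or exMidgut replicate 2. Of the other pathway genes 35 of 52 tested were higher in exGut and 0 lower, with Ccnd1, a cell cycle gene, Sox4 (6.04), Ptk7 (5.45) and Tnfrsf19 (4.75) ahead.

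At E6.5, before the gut forms, the progenitors of the lineages differed in most members. Of 32 members tested between exEndo 1, the distal endoderm in which the study places the progenitors of exGut, and Epi, 21 passed (33.4% of all genes did): 12 were higher in exEndo 1 (19.8%) and 9 lower (13.6%). The median log2 difference was 0.60 for members and 0.09 for all genes. Of the 32 members, 14 were above Epi in every exEndo 1 library and 8 below. Groups did not overlap in 56.6% of all genes tested, so separation was common in this comparison. Both genes of ligand release, Rspo3, Rnf43, Sfrp1 and Sfrp5 were higher in exEndo 1, whereas most Frizzled receptors that passed and 3 of the 4 TCF/LEF factors were lower.

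Among the ligands, Wnt3 was at 2.73, 16.5, 16.7 and 16.9 TPM in Epi and 17.8, 39.6, 31.2 and 44.7 TPM in exEndo 1, without overlap (1.44 ± 0.480 SE, adjusted p = 0.0214). Epi replicate 1 stood apart, with streak markers summing to 46.4 TPM against 416 to 550.4 TPM in the others; without it the difference was 0.88 (adjusted p = 0.0185), under the limit. The Wnt3 call was also lost without exEndo 1 replicate 2 or 4, with an adjusted p of up to 0.0608. Wnt5a was at 0.97, 0.94, 1.12 and 1.94 TPM in Epi and 2.11, 3.95, 7.34 and 4.38 TPM in exEndo 1 (1.21 ± 0.275 SE, adjusted p = 0.00247), again without overlap; without exEndo 1 replicate 3 it was 0.98 (adjusted p = 0.00547). Wnt11 was at 0.042, 0.54, 0.064 and 0.55 TPM in Epi and 6.20, 8.88, 3.06 and 7.14 TPM in exEndo 1 (2.45 ± 0.271 SE, adjusted p = 1.37e-05). Wnt8a, a ligand of the epiblast and early streak, was at 1.87, 9.10, 13.7 and 9.64 TPM in Epi and listed at 0 in all 4 exEndo 1 libraries (adjusted p = 5.74e-05), so no fold is given. Wnt8a entered the test through the Epi libraries alone and Wnt11 through the exEndo 1 libraries alone, so their p-values are a description.

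Both genes of ligand release were higher in exEndo 1. Porcn was at 1.95, 3.35, 3.62 and 4.69 TPM in Epi and 48.4, 32.0, 13.6 and 29.5 TPM in exEndo 1 (2.77 ± 0.335 SE, adjusted p = 2.69e-05). Wls was at 9.81, 17.8, 16.2 and 37.3 TPM in Epi and 136, 156, 128 and 126 TPM in exEndo 1 (2.84 ± 0.301 SE, adjusted p = 9.54e-06). In the R-spondin axis Rspo3 was at 1.04, 2.49, 3.76 and 4.53 TPM in Epi and 35.8, 41.2, 18.8 and 28.7 TPM in exEndo 1 (3.06 ± 0.323 SE, adjusted p = 9.18e-06). Rnf43 was at 0.26, 0.5, 0.31 and 0.32 TPM in Epi and 1.63, 3.87, 3.69 and 3.68 TPM in exEndo 1 (1.61 ± 0.210 SE, adjusted p = 4.79e-05). No library of exEndo 1 overlapped with Epi in these 4 genes, as in 56.6% of all genes tested. Rnf43 was above 1 TPM in exEndo 1 alone, so its p-value is a description.

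The receptors went both ways. Fzd2 was at 23.7, 31.9, 37.2 and 27.6 TPM in Epi and 2.35, 4.13, 1.15 and 3.92 TPM in exEndo 1 (-3.07 ± 0.273 SE, adjusted p = 2.42e-06). Fzd3 was at 5.30, 6.91, 6.93 and 11.7 TPM in Epi and 1.86, 1.39, 0.73 and 1.05 TPM in exEndo 1 (-1.92, adjusted p = 3.25e-05), and Fzd7, a receptor known from the epiblast, at 33.5, 30.2, 32.3 and 41.0 TPM in Epi and 17.3, 7.42, 6.19 and 11.3 TPM in exEndo 1 (-1.70, adjusted p = 0.000173). These 3 were lower in every exEndo 1 library. Fzd4 was at 1.23, 0.97, 1.04 and 1.05 TPM in Epi and 3.03, 5.62, 10.8 and 5.60 TPM in exEndo 1 (1.70, adjusted p = 0.000220). Fzd5 was at 3.60, 3.62, 3.70 and 2.50 TPM in Epi and 31.8, 11.9, 3.61 and 18.2 TPM in exEndo 1, with exEndo 1 replicate 3 inside the Epi range (1.69, adjusted p = 0.00837).

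Of the secreted inhibitors, which bind Wnt ligands outside the cell, Sfrp1 was at 8.46, 5.28, 6.72 and 6.69 TPM in Epi and 186, 77.5, 21.2 and 87.5 TPM in exEndo 1 (3.25 ± 0.493 SE, adjusted p = 0.000150). Sfrp5 was at 0.38, 0.35, 0.49 and 0.094 TPM in Epi and 37.7, 15.8, 9.02 and 33.7 TPM in exEndo 1 (4.05 ± 0.373 SE, adjusted p = 3.20e-06). Sfrp2 did the reverse, at 24.3, 15.5, 16.1 and 12.3 TPM in Epi and 0.16, 0.48, 0.056 and 0.14 TPM in exEndo 1 (-3.87 ± 0.213 SE, adjusted p = 6.27e-08). None of the 3 related inhibitors overlapped between Epi and exEndo 1, as in 56.6% of all genes tested. Nkd2 was at 2.36, 2.53, 2.12 and 2.12 TPM in Epi and 0.045, 0.11, 0.034 and 0.23 TPM in exEndo 1 (-1.57 ± 0.140 SE, adjusted p = 2.41e-06). It was thus lower in exEndo 1 than in Epi, with no value above 2.53 TPM. At E9.5 its values separated by origin in the hindgut and overlapped in the midgut. Nkd1 did not pass. Sfrp2 and Nkd2 were above 1 TPM in Epi alone and Sfrp5 in exEndo 1 alone, so their p-values at E6.5 are a description.

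Of the nuclear factors, Lef1 was at 69.7, 107, 119.9 and 90.6 TPM in Epi and 1.38, 4.29, 1.45 and 3.83 TPM in exEndo 1 (-4.78 ± 0.287 SE, adjusted p = 1.18e-07). Tcf7l1, mainly a repressor of Wnt targets, was at 41.0, 42.0, 40.5 and 27.3 TPM in Epi and 10.0, 7.29, 3.22 and 7.28 TPM in exEndo 1 (-2.34 ± 0.272 SE, adjusted p = 1.98e-05). Tcf7l2 was the factor with the opposite sign, at 19.9, 19.2, 28.4 and 26.8 TPM in Epi and 185, 85.7, 67.2 and 131 TPM in exEndo 1 (2.18 ± 0.278 SE, adjusted p = 4.10e-05). Tcf7 was at 9.81, 21.6, 22.8 and 32.8 TPM in Epi and 4.14, 9.57, 7.92 and 17.1 TPM in exEndo 1, with overlap (-1.12 ± 0.397 SE, adjusted p = 0.0285). It lost its call without Epi replicate 2, 3 or 4 or exEndo 1 replicate 1 or 3 (adjusted p = 0.0591 to 0.0832). Of the other pathway genes, 11 were higher and 13 lower of 51 tested, among them Ccnd1 (-4.26), and the inhibitors Cer1 (4.23) and Dkk1 (4.07).

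The comparison of exEndo 2 with Epi shares the Epi libraries with the one above, so its values are given side by side only. Of 31 members tested 19 passed (35.8% of all genes did), 8 higher in exEndo 2 and 11 lower. Lef1 (-4.94), Fzd2 (-4.58), Sfrp2 (-3.81), Tcf7l1 (-3.43), Wnt8a (-2.97), Fzd3 (-2.58), Fzd7 (-2.04) and Nkd2 (-1.52) were lower, as in the first comparison, and so were Sfrp1 (-2.48), Wnt3 (-1.35) and Rspo3 (-1.23), which had the other sign there. Fzd4 (2.96), Wls (1.67), Tcf7l2 (1.44), Nkd1 (1.31), Sfrp5 (1.27), Rnf43 (1.22), Lrp5 (1.11) and Wnt11 were higher. Wnt3 lost its call (adjusted p = 0.0936 to 0.117) without Epi replicate 2, 3 or 4 or exEndo 2 replicate 1, 2 or 3. The number that passed was 12 without Epi replicate 2, 3 or 4. Nkd2 was then above 1 TPM in too few libraries and left the test.

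Both extraembryonic endoderms were compared directly, distal against proximal. Of 28 members tested 14 passed, where 6.41% of all genes did: 12 were higher in exEndo 1 (3.96%) and 2 in exEndo 2 (2.45%), and the median log2 difference was 0.69 for members and 0.02 for all genes. Sfrp1 differed most, at 0.74, 0.59, 0.18 and 0.12 TPM in exEndo 2 against the values given above (5.73 ± 0.499 SE, adjusted p = 4.11e-05). Rspo3 was at 0.61, 0.29, 0.26 and 1.37 TPM in exEndo 2 (4.29 ± 0.276 SE, adjusted p = 6.20e-06). Sp5 was at 9.42, 24.6, 14.8 and 16.2 TPM in exEndo 1 and 0.023, 0.2, 0.29 and 0.23 TPM in exEndo 2 (3.80 ± 0.260 SE, adjusted p = 9.25e-06). Wnt3 was at 2.41, 2.06, 2.79 and 11.3 TPM in exEndo 2 (2.79 ± 0.421 SE, adjusted p = 0.00137), Sfrp5 at 1.48, 3.96, 2.49 and 1.40 TPM (2.77 ± 0.406 SE, adjusted p = 0.00118) and Porcn at 4.08, 6.65, 4.07 and 4.01 TPM (2.38 ± 0.317 SE, adjusted p = 0.000649). No exEndo 2 library reached exEndo 1 in any of these 6 genes. Sfrp1 and Sp5 were above 1 TPM in exEndo 1 alone, so their p-values are a description. Groups did not overlap in 19.6% of all genes tested.

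The others higher in exEndo 1 were Fzd5 (2.04), Fzd2 (1.51), Wnt5a (1.34), Wls (1.17), Tcf7l1 (1.09) and Lgr4 (1.01). Fzd4 (-1.26) and Nkd1 (-1.15) were higher in exEndo 2, where Nkd1 was at 4.66, 10.2, 10.1 and 12.7 TPM against 1.31, 3.68, 5.35 and 4.73 TPM in exEndo 1. Nkd1 lost its call without exEndo 1 replicate 1, 2 or 4 or exEndo 2 replicate 2, 3 or 4 (adjusted p = 0.0641 to 0.135), Tcf7l1 without exEndo 1 replicate 1, 2 or 4 or exEndo 2 replicate 1, 3 or 4 (0.0696 to 0.0853), Lgr4 without exEndo 1 replicate 1 or 2 or exEndo 2 replicate 3 or 4 (0.0719 to 0.0880), and Fzd4 without exEndo 2 replicate 3 or 4 (0.0541 to 0.0564). Extraembryonic ectoderm markers summed to 1.02, 32.5, 1.68 and 15.3 TPM in the exEndo 2 replicates. The ligands Wnt7b (0.59, 3.49, 0.58 and 3.38 TPM) and Wnt6 (0, 1.11, 0.095 and 2.73 TPM) were high in the same replicates 2 and 4. Without them 7 members passed: Wnt3, Porcn, Fzd2, Rspo3, Sfrp1, Sfrp5 and Sp5. Streak markers also moved with this comparison, summing to 114 to 399.7 TPM in exEndo 1 and 9.27 to 31.9 TPM in exEndo 2, and their part was not tested. Of the other pathway genes 6 were higher and 1 lower of 45, with Cer1 (6.37) and Gpc4 (4.71) ahead.

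**Figure D4:**
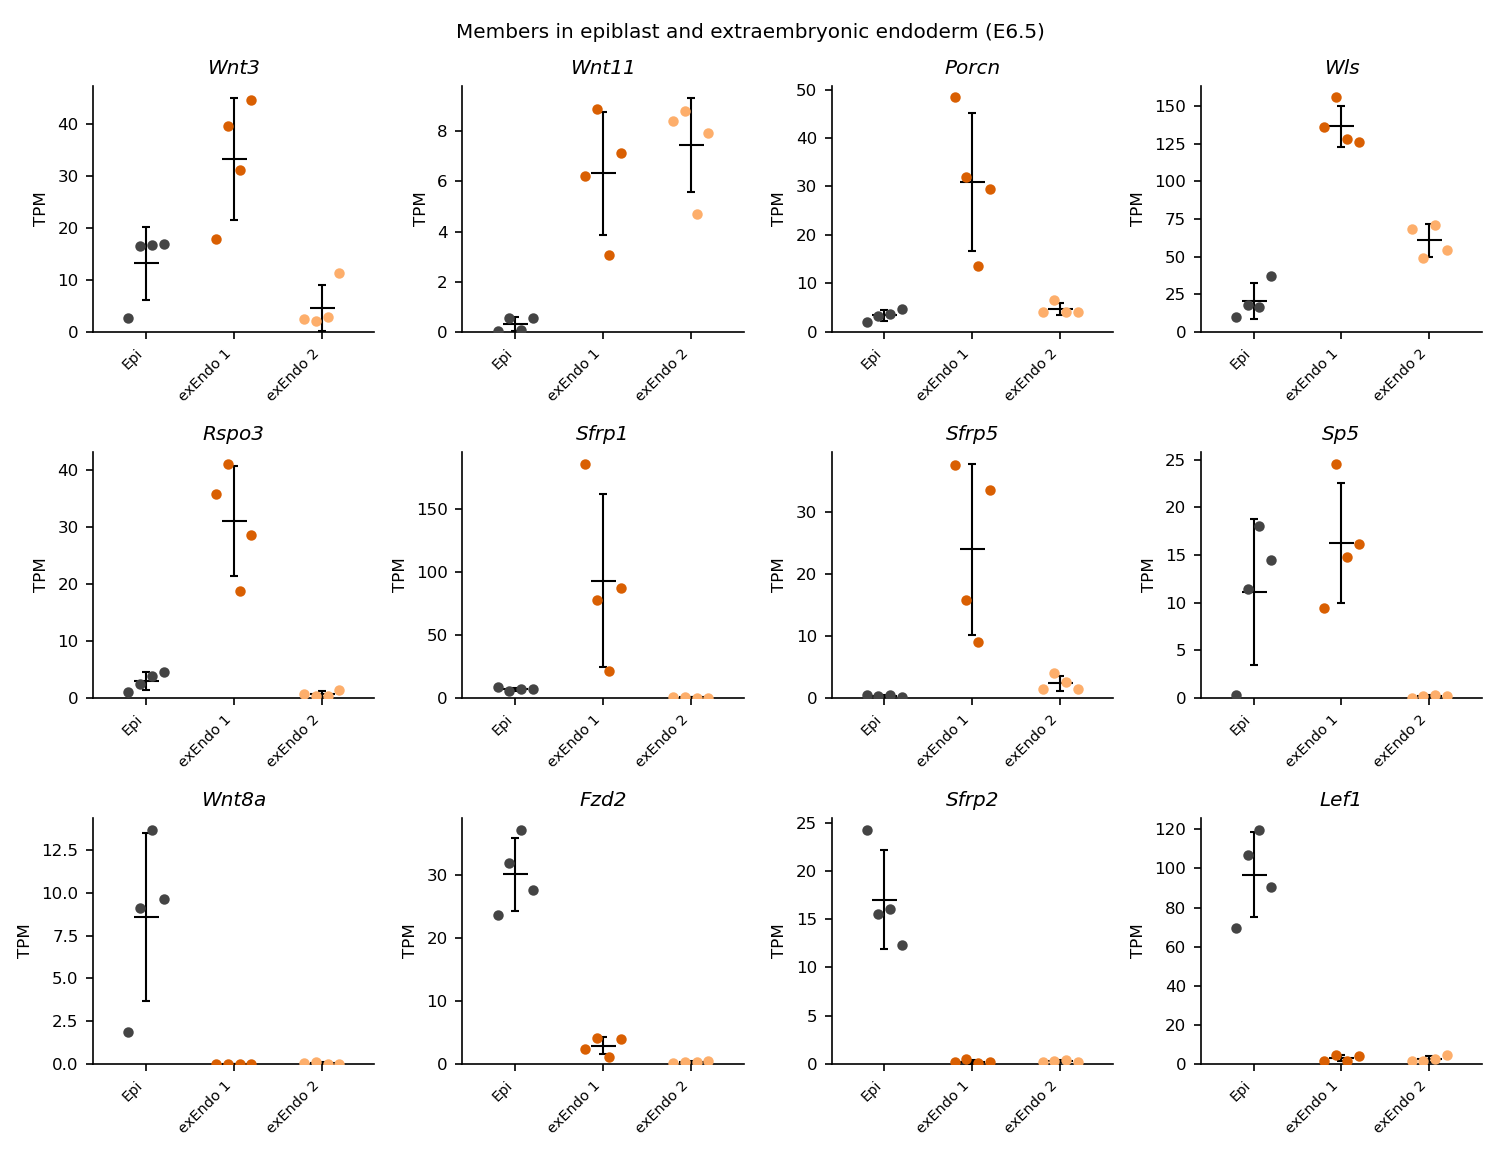
TPM of 12 members in Epi, exEndo 1 and exEndo 2 at E6.5; points are libraries (n = 4 per group), the horizontal mark is the mean and the bar the SD, cut at 0. Porcn, Wls, Rspo3, Sfrp1 and Sfrp5 are highest in exEndo 1, and Wnt8a, Fzd2, Sfrp2 and Lef1 are highest in Epi; Epi replicate 1 is the low point of Wnt3, Wnt8a and Sp5.

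At E13.5 no member passed between the origins, where the extraembryonic cells were also Trp53 null. Over both organs, with organ as a covariate, 32 members were tested and 0 passed (0.625% of all genes did), with 5 at an unadjusted p under 0.05 by limma: Fzd2 (-1.32 ± 0.47 SE, adjusted p = 0.274), Wls (0.65), Znrf3 (1.35), Rnf43 (0.95) and Fzd6 (1.42). Fzd2 was at 20.5, 22.7 and 17.6 TPM in emSI, 15.8, 1.62 and 4.98 TPM in exSI, 16.1, 16.3 and 30.2 TPM in emColon and 11.8, 8.64 and 10.0 TPM in exColon, with no overlap within either organ. Fzd4 and Sfrp2 were also lower without overlap in exSI, and Wls, Fzd8, Lgr4, Rnf43 and Znrf3 were higher without overlap in exColon. Of all genes tested, 15.7% did not overlap in the small intestine and 16% in the colon. In the colon 22 members were tested and 0 passed (0.269% of all genes), with 3 at an unadjusted p under 0.05; in the small intestine 0 of 27 passed (0.738%), with 5; and in the interaction of origin and organ 0 of 32 (0.0160%), with 4. With n = 3 these tests find large differences only, and the missing calls do not show that the groups act alike.

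In the small intestine the Sfrp genes varied between libraries. Sfrp1 was at 136, 26.8 and 3.02 TPM in emSI and 7.12, 0 and 1.45 TPM in exSI (-3.20, adjusted p = 0.338). It followed the mesenchyme markers, which summed to 451, 112 and 1.93 TPM in the same emSI replicates and to 0.02 to 6.41 TPM in exSI. Sfrp2 was at 2.49, 1.62 and 17.1 TPM in emSI and 0.24, 0 and 0.22 TPM in exSI (-2.26, adjusted p = 0.356). Sfrp5 was at 88.3, 179.9 and 189.7 TPM in emSI and 169, 438 and 372 TPM in exSI (1.06 ± 0.373 SE, adjusted p = 0.320). In exColon the ligand Wnt4 was at 10.6, 2.05 and 0.057 TPM, in the order of the surface ectoderm markers (176, 29.7 and 13.2 TPM). The part of these cells was not tested.

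Between the organs 1 member passed, Sfrp5. It was listed at 0 in all 6 colon libraries and passed in the embryonic cells (1 of 26 members, 0.472% of all genes; adjusted p = 0.000934) and in the extraembryonic cells (1 of 27, 0.693%; adjusted p = 5.08e-05). No fold is given. Sfrp5 entered both tests through the small intestine libraries alone, so its p-values are a description. Without any replicate of the small intestine Sfrp5 is above 1 TPM in 2 libraries and leaves the test. The same gene was at 0 in every hindgut library of E9.5 and at 0 to 13.0 TPM in the midgut libraries of that stage.

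Over time in the embryonic lineage, most members that changed fell. Between E9.5 and E13.5, with position along the gut as a covariate, 37 members were tested and 21 passed (19.7% of all genes did): 3 were higher at E13.5 (2.94%) and 18 lower (16.7%). The median was -1.18 for members and -0.46 for all genes. After median-ratio rescaling the median of all genes was -0.20, the share of all calls that were higher moved from 14.9% to 31.7% and 18 members passed. Sorting differed between the stages, so stage and gate cannot be told apart.

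Lef1 fell most (-5.31 ± 0.426 SE, adjusted p = 7.70e-07), from 20.0 to 274 TPM in emGut to 0 to 7.85 TPM in the embryonic organs. Rspo3 (-3.93), Wnt5a (-3.76), Tcf7 (-2.62), Nkd2 (-2.59), Nkd1 (-2.53), Wls (-1.95), Axin2 (-1.94), Fzd7 (-1.85), Fzd1 (-1.78), Fzd10 (-1.69), Wnt11 (-1.62), Porcn (-1.55) and Fzd3 (-1.19) also fell. Wnt3, Wnt6, Notum and Sp5 fell and were listed at 0 in all 6 embryonic libraries of E13.5, so no fold is given. Hindgut and midgut were fitted with a single change over time. Sfrp5 (2.65 ± 0.794 SE, adjusted p = 0.0201), Fzd5 (1.59 ± 0.393 SE, adjusted p = 0.00704) and Fzd4 (1.44 ± 0.342 SE, adjusted p = 0.00568) rose. Sfrp5 was listed at 0 in every emHindgut and emColon library, so it rose between midgut and small intestine alone. Its 2.65 averages that rise with no change. Wnt3 was at 0 in every emMidgut library, so it fell between hindgut and colon alone. Sfrp5 lost its call without the emMidgut libraries with germ cell transcripts (1.75, adjusted p = 0.0701), without the emSI libraries with mesenchyme transcripts (1.81, adjusted p = 0.128), and without emSI replicate 2 or 3 (0.0504 to 0.0506). Porcn lost it without any emColon replicate or emHindgut replicate 1, 3 or 4 (adjusted p = 0.0565 to 0.0630), Fzd1 without any emColon or emHindgut replicate (0.0530 to 0.0634), Notum without any emColon replicate or emHindgut replicate 4 (0.0505 to 0.0552) and Wnt3 without emColon replicate 1 (0.0501). Of the other pathway genes 25 of 56 fell and 0 rose, with Cdx4 (listed at 0 in all embryonic libraries of E13.5), T (-4.45), Tnfrsf19 (-4.28) and Wnt5b (-4.26) ahead.

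**Figure D5:**
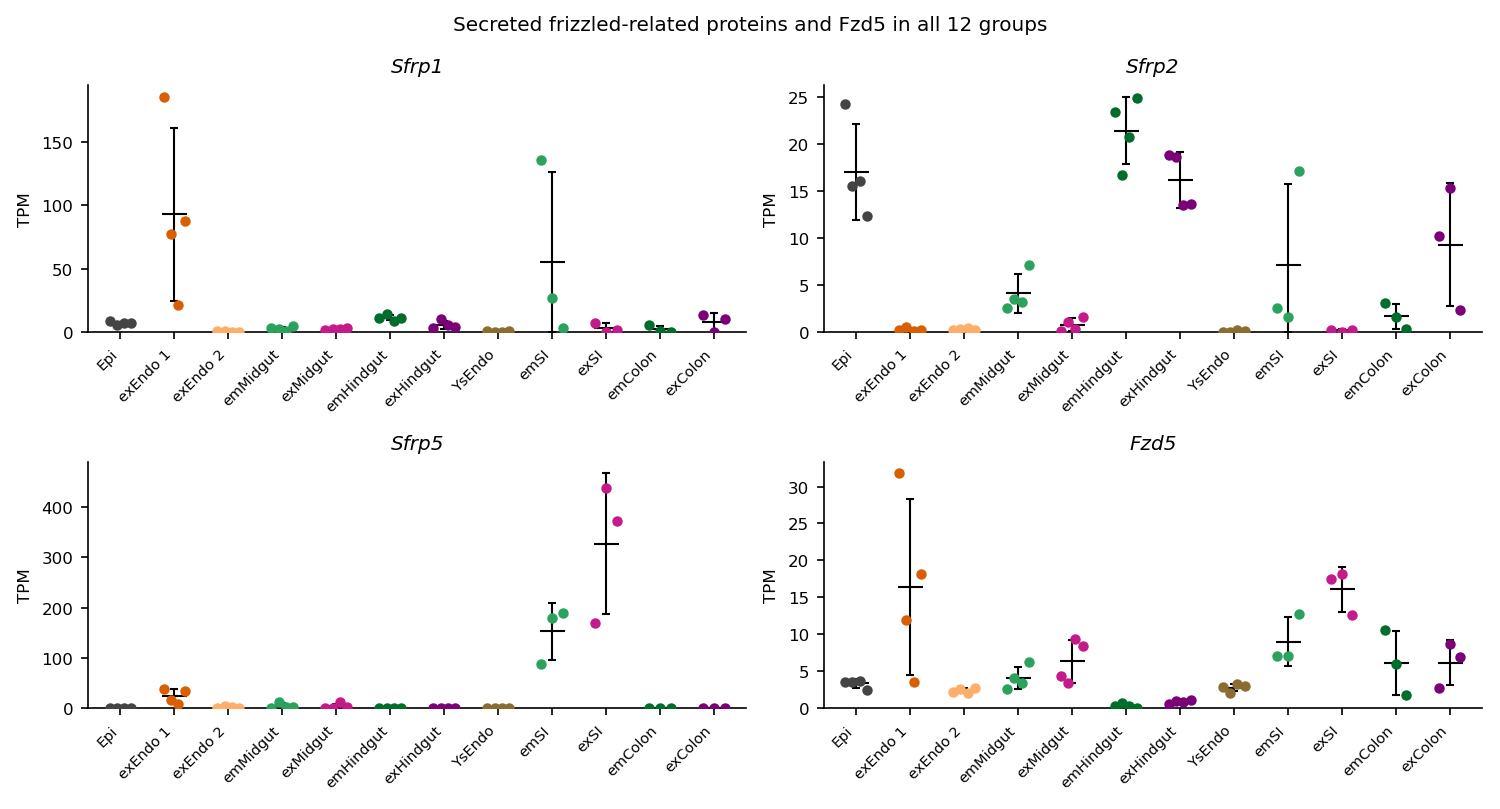
TPM of Sfrp1, Sfrp2, Sfrp5 and Fzd5 in all 12 groups; points are libraries (n = 4 per group at E6.5 and E9.5, n = 3 at E13.5), the horizontal mark is the mean and the bar the SD, cut at 0. Sfrp5 is high in exEndo 1 and in the small intestines and at 0 in the hindguts and colons, and the high Sfrp1 bar of emSI comes from replicate 1.

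The members that passed no test of origin were not alike in level. Lrp6, the main Wnt co-receptor, was at 5.67 to 31.9 TPM in all 44 libraries, and Axin1 was at 2.04 to 30.8 TPM. Wnt2b was above 1 TPM in 12 libraries, mostly of E6.5, and at 0 in 17. Wnt4, Wnt7a, Wnt7b, Wnt9b, Wnt10a and Fzd9 were tested in few comparisons or none, being above 1 TPM in too few libraries. Lgr5 passed only between exGut and YsEndo (1.50 ± 0.481 SE, adjusted p = 0.0144), and Znrf3 only there as well (1.70 ± 0.259 SE, adjusted p = 5.50e-05).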

How the data were processed

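RNA-seq was measured in 44 libraries, made with the low-input poly(A) arm of the Smart-RRBS protocol. The authors trimmed reads (cutadapt 4.1), aligned them to mm10 with the GFP and mCherry sequences added (STAR 2.7.9a) and estimated gene values against GENCODE VM23 (StringTie 2.0.6). The kit keeps no strand, so overlapping and antisense genes cannot be told apart. The TPM values deposited by the authors were summed per gene identifier and used here. FPKM values were also deposited by the authors and were not used. The coverage deposited by the authors served for aligned bases alone. Read counts were not used, so the sampling error of a value is unknown and precision comes from replicates.

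Groups came from the sample labels. Members and gene lists were chosen with earlier results of these data known, and every member that passed is named. Values were fitted as log2(TPM + 1) with limma 3.58.1 (R 4.3.3; lmFit, eBayes with trend, two-sided, Benjamini-Hochberg over all genes tested). Protein-coding genes and reporters, not Y-linked, above 1 TPM in as many libraries as the smallest group holds were tested; 21531 identifiers were eligible. Fold changes on this scale understate changes at low TPM. Of 32287 identifiers, 32235 matched GENCODE vM21, whose release differs from that of the authors. The procedure was tested on simulated data. Alternatives were a pseudocount of 0.1, no filter, median-ratio rescaling, no variance trend, a replicate block, a region covariate, and each library left out. A further 3 exclusions of libraries with transcripts of other cells were chosen after the data were seen. Same-numbered samples of exEndo 1 and exEndo 2 deviated together (correlations 0.17 to 0.40 in all 4 pairs), and the block gave the same 14 members. Elsewhere same-number correlations were -0.17 to 0.20, and pairing cannot be told from them.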

Additional observations from a re-analysis of the deposited data

Results flagged for a closer look

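Among the 21 members whose levels were examined, in 130 groups of 4, the following 8 lay beyond Dixon's 95% limit, where chance alone gives about 1 in 20, so their number is close to what chance gives.

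Wnt3 was at 2.73 TPM in Epi replicate 1 and 16.5 to 16.9 TPM in the other 3, and at 11.3 TPM in exEndo 2 replicate 4 against 2.06 to 2.79 TPM. The same Epi library had low Sp5 and Wnt8a (0.33 and 1.87 TPM) and a streak marker sum of 46.4 TPM. Wnt11 was at 4.76 TPM in emMidgut replicate 1 and 0 to 0.19 TPM in the others. Porcn was at 6.65 TPM in exEndo 2 replicate 2 against 4.01 to 4.08 TPM. Wls was at 221 TPM in emMidgut replicate 4 against 137 to 151 TPM. In Epi replicate 4, Fzd5 was at 2.50 TPM (3.60 to 3.70 in the others) and Tcf7l1 at 27.3 TPM (40.5 to 42.0). Rnf43 was at 1.63 TPM in exEndo 1 replicate 1 and 3.68 to 3.87 TPM in the others.

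The effect of origin on Nkd2 differed between the gut regions, with an interaction of -4.41 on the log2 scale at E9.5.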

How the results depend on the processing

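No member changed sign of a passing difference under any alternative. Of 260 counts of members that passed, over all comparisons and alternatives, 227 stayed within 1.5 times the reported count. Nkd2 in the hindgut passed throughout. The interaction of origin and region had 0 members with no variance trend, a replicate block, no filter on low values or a pseudocount of 0.1, and 0 without emMidgut replicates 1 and 3; its adjusted p for Nkd2 was 0.00843 to 0.208. Between exEndo 1 and exEndo 2, 9 passed with no filter and 7 without exEndo 2 replicates 2 and 4. Between emColon and emSI, 2 passed with no variance trend (Porcn and Sfrp5) and 0 without emSI replicates 1 and 2. Leaving out 1 library at a time gave 0 to 1 for exMidgut against emMidgut, 1 to 2 for exHindgut against emHindgut, 0 to 1 for the interaction, 12 to 16 for exEndo 2 against Epi, 8 to 13 for exEndo 1 against exEndo 2, and 0 to 1 for colon against small intestine in each lineage, where Sfrp5 then leaves the test. The filter kept its number of libraries when 1 was left out. Members above 1 TPM in 1 group alone thus left the test without any replicate of that group, which lowered some of these counts. Otherwise the cause of the moved results was not tested.

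The replicate block was fitted for comparisons whose groups share replicate numbers. Outside exEndo 1 and exEndo 2, same-number correlations were low, at -0.17 to 0.20. Between embryonic and extraembryonic cells the own number was the best match in 3 of 3 pairs in colon and in small intestine. In midgut and in hindgut it was the best match in 3 of 4. The labels do not state a pairing, and these values cannot settle it. With the block 1 member passed in exMidgut against emMidgut (Lef1) and 1 in exSI against emSI (Sfrp5), and in exGut against YsEndo Axin2, Sfrp2 and Sp5 did not pass (adjusted p = 0.0755, 0.0527 and 0.0502). For Nkd2 in the interaction it gave an adjusted p of 0.0503. TPM near 1 limits what can be seen of the low ligands.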
